A study of Mus musculus with 8 samples.

Results

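The 9 genes described here are Spry1, Spry2, Spry4, Spred1, Spred2, Dusp4, Dusp6, Etv4 and Etv5, transcripts that rise and fall with signalling from growth factor receptors to the kinase ERK. They were chosen as known members of this feedback circuit, with earlier results of these data known. Each was read from the exon count table by its gene symbol. All 9 of the 39017 genes in that table were found and all 9 passed the filter on low counts. RNA was sequenced from satellite cells, which are the resident stem cells of muscle, isolated from the diaphragm and the abdominal muscles of adult Pax3GFP/+ mice and cultured for 4 days after plating at 7500 cells per 35 mm dish. There were 4 libraries from cells kept in 10 µM sal003, an inhibitor of the phosphatases that act on the translation factor eIF2α, and 4 from cells kept in the vehicle DMSO. Cells of both groups carry the green fluorescent protein allele of Pax3, and both groups were compared after the same time in culture. The sample attributes give the dose in µM, which is used here, while the treatment protocol gives it in mM. Whether the replicates are separate mice or separate dishes is not stated in the labels, and p-values then cover the spread among these libraries alone, which may be technical.

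When a growth factor such as FGF or HGF binds its receptor, adaptors load RAS with GTP, and RAS starts the kinase cascade of RAF, MEK and ERK. Sprouty and Spred proteins are brakes that act near RAS. Spred proteins bring the GTPase activator neurofibromin to the membrane, and Sprouty proteins act at several steps between the receptor and RAF. DUSP4 and DUSP6 are phosphatases that dephosphorylate MAP kinases, DUSP6 in the cytoplasm with a preference for ERK and DUSP4 in the nucleus. ETV4 and ETV5 are ETS transcription factors of the PEA3 group, whose genes are held down by the repressor Capicua until ERK relieves it. In adult muscle, Spry1 is known for its place in quiescent Pax7-expressing satellite cells and in their return to quiescence after injury. Transcript levels are a readout of the feedback genes and were measured here without a measurement of ERK phosphorylation.

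Promoter windows are shown because Capicua binds an 8-letter DNA element whose letters can be looked for directly. The windows come from RefSeq on GRCm38.p6 and run from 250 bases before to 50 bases after a gene's start. By symbol 6 of the 9 genes matched, with 7 windows, as Etv5 has a pair of annotated starts, and Spry4, Dusp4 and Etv4 did not match. The words searched on both strands were TGAATGAA, TGAATGAG, TGAATGGA, TGAATGGG, TCAATGAA, TCAATGAG, TCAATGGA and TCAATGGG. They occurred in windows of 3 of the genes, which are printed 5′ to 3′ on the strand of the gene with the matching letters in capitals. The Dusp6 window lies at chr10:99262981-99263280 on the plus strand, the downstream Etv5 window at chr16:22438319-22438618 on the minus strand and the Spry2 window at chr14:105896770-105897069 on the minus strand.
Dusp6: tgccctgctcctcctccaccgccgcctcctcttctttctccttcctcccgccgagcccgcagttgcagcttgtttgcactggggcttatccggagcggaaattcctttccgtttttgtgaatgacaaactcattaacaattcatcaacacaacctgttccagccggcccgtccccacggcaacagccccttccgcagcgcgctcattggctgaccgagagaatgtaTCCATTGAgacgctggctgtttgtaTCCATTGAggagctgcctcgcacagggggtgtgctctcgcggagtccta
Etv5: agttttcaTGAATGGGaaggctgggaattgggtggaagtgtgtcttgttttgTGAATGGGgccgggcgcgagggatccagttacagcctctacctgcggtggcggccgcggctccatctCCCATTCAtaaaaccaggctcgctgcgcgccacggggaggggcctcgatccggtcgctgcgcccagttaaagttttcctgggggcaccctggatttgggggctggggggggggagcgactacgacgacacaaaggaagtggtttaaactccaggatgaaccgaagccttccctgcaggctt
Spry2: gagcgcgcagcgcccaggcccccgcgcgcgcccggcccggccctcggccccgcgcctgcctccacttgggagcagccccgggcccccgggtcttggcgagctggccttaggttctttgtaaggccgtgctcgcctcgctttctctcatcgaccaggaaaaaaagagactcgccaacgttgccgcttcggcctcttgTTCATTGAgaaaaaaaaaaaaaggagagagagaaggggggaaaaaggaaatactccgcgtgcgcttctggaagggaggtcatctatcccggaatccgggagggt
Dusp6 held 2 copies of TCAATGGA on its reverse strand, beginning at positions -24 and 2 from the start. The downstream Etv5 window held 3 copies of TGAATGGG, at -242 and -198 on the strand of the gene and at -131 on the reverse strand. Spry2 held 1 copy of TCAATGAA, at -54 on the reverse strand. Of the 32851 windows in the whole table, 7.02% held at least 1 of these words, 0.444% at least 2 and 0.0791% at least 3. The windows of Spry1, Spred1 and Spred2 and the upstream window of Etv5 held none. The ETS word CCGGAAGT (3.89% of all windows), the AP-1 word TGANTCA (7.81%) and the cyclic AMP element TGACGTCA (1.79%) were in none of the 7 windows, and the E-box CAGCTG, which myogenic factors bind (16.3% of all windows), was in the upstream Etv5 window alone. These are matches of letters in short windows, and binding was not measured.

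Total counts ran from 37248830 to 39378523 in sal003 libraries and from 32753929 to 40234107 in DMSO libraries. The 9 genes had between 376 counts (Etv4, DMSO replicate 2) and 4869 counts (Spred1, sal003 replicate 4). DMSO replicate 2 stood apart from the other libraries. Its Spearman correlation across genes with another DMSO library was at most 0.9489, against at least 0.9765 between the other DMSO libraries, and 14437 genes were detected in it, against 16561 to 18076 in the other 7 libraries. It had the highest DMSO value for 5 of the 9 genes and the lowest for 3, so results for the 9 genes, and the counts of the pathway lists, are also given without it where they changed. The satellite cell label was checked against markers. Myod1, the determination factor of myoblasts, stood at 832 to 946 CPM (counts scaled to library size with TMM) in sal003 and 827 to 1020.0 CPM in DMSO, and Pax7 at 94.97 to 100.8 CPM in sal003 and 65.2 to 80.6 CPM in DMSO. Of the 10 satellite cell and myoblast markers 9 could be tested; 1, Pax7, was higher and 3 were lower, and the list summed to 2573 to 2851 CPM in sal003 and 4334 to 5009 CPM in DMSO. The 3 lower ones were Des, the muscle intermediate filament gene, at 1116 to 1209 CPM in sal003 and 2660 to 3181 CPM in DMSO, Cdh15, which encodes M-cadherin, at 109 to 134 CPM in sal003 and 213 to 257 CPM in DMSO, and the integrin gene Itga7, at 273 to 331 CPM in sal003 and 397 to 492 CPM in DMSO. Chodl, another marker on that list, was at 0 in all 8 libraries. Ptprc, the pan-leukocyte marker, and Dcn, a fibroblast marker, were at 0 in all libraries. Other markers of their lists were detected. The 8 immune markers summed to 2.16 to 4.56 CPM in sal003 and 2.84 to 5.82 CPM in DMSO. The fibro-adipogenic marker Col3a1 stood at 97.5 to 117 CPM in sal003 and 91.6 to 112.6 CPM in DMSO. The 8 endothelial markers summed to 3.11 to 6.09 CPM in sal003 and 0.890 to 4.70 CPM in DMSO.

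Sal003 and DMSO cells differed at 4 of the 9 feedback genes. Etv4, Spred2 and Spred1 were higher in sal003 and Spry1 was lower, while Spry2, Spry4, Dusp4, Dusp6 and Etv5 did not pass the test with all libraries. Over the 15816 genes tested, 10.6% were higher and 12.2% lower at the same threshold, an adjusted p below 0.05 in edgeR's quasi-likelihood test with Benjamini-Hochberg adjustment over all genes. The same 4 genes were those whose groups of libraries did not overlap, which held for 26.8% of all tested genes. The median log2 fold change of the 9 was 0.20, against -0.0034 over all tested genes. Without DMSO replicate 2 it was 0.37, against -0.0094 over all tested genes. In both fits the middle gene of the 9 was Dusp4. Markers of differentiating muscle and of proliferation also moved with the condition. All 11 muscle differentiation markers were lower in sal003, with a summed level of 15040 to 17130 CPM in sal003 and 50300 to 73540 CPM in DMSO. Most of that sum was the titin gene Ttn, at 11960 to 13470 CPM in sal003 and 31930 to 53100 CPM in DMSO. All 6 proliferation markers were higher, at 3327 to 3503 CPM in sal003 and 1314 to 1864 CPM in DMSO. Of the smooth muscle and pericyte markers, 3 were lower, with a summed level of 454 to 622 CPM in sal003 and 1630 to 1765 CPM in DMSO, most of it Acta2, while the pericyte and smooth muscle markers Rgs5, Kcnj8 and Myh11 averaged under 1 CPM. Fibro-adipogenic markers summed to 100.8 to 119 CPM in sal003 and 98.2 to 117 CPM in DMSO, most of it Col3a1. Of 5 Schwann cell markers 1, Ngfr, was lower, and the list summed to 77.5 to 90.3 CPM in sal003 and 119 to 166 CPM in DMSO, with Sox10 averaging under 1 CPM. Of 4 tenocyte markers 1, Scx, was lower, and the list summed to 53.8 to 78.6 CPM in sal003 and 116 to 141 CPM in DMSO, with Kera and Tnmd at 0 in all libraries. The part of these shifts in the changes of the feedback genes was not tested, and in such bulk samples fewer cells of a type and less RNA per cell cannot be told apart.

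**Figure D1:**
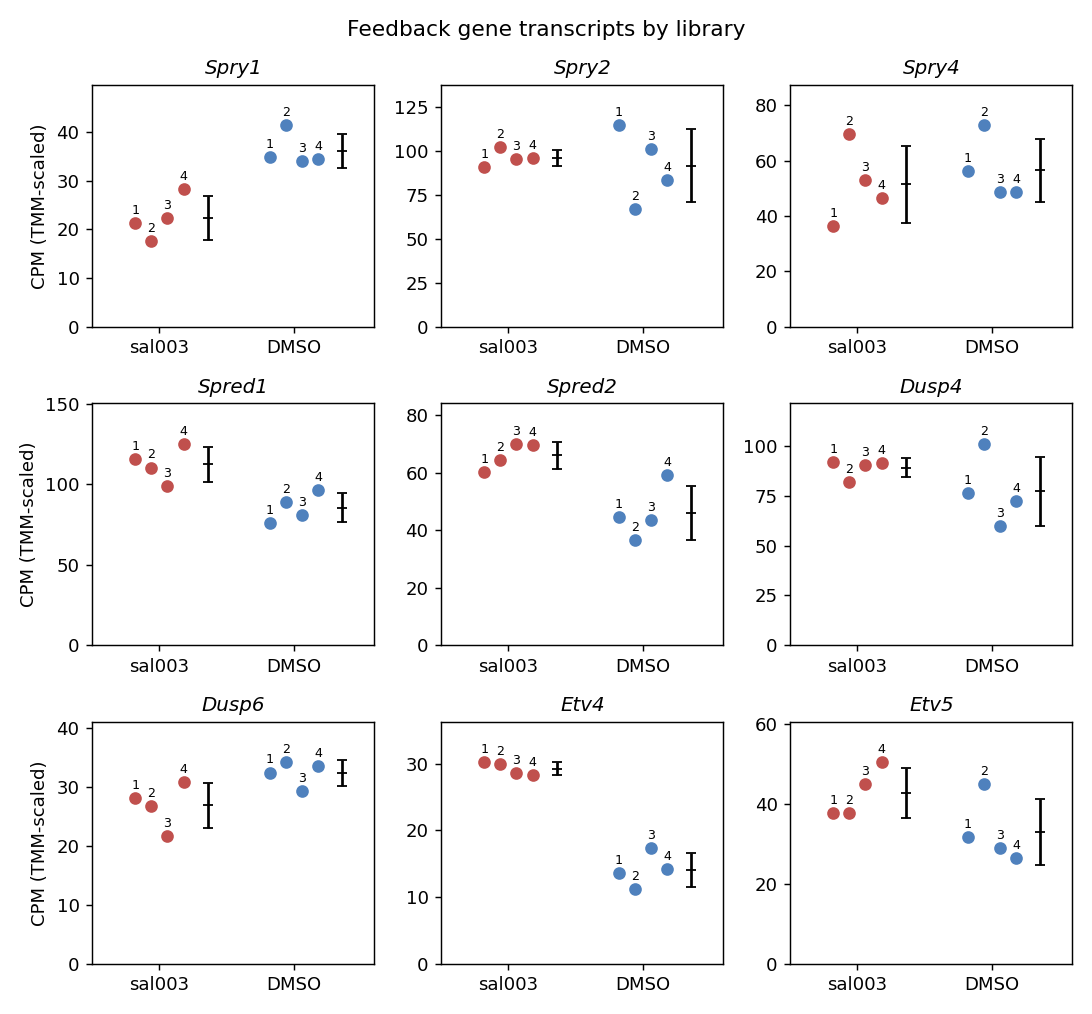
TMM-scaled CPM (linear axis from 0) of each of the 9 feedback genes, with 1 point per library numbered by replicate, sal003 (red) left of DMSO (blue), and bars of mean ± SD (n = 4). Etv4 in sal003 sits between 28.3 and 30.2 CPM, above every DMSO library, and Spry1 in sal003 lies below every DMSO library, while DMSO replicate 2 is the highest DMSO library for Spry1, Spry4, Dusp4, Dusp6 and Etv5.

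Among the Sproutys, cytoplasmic inhibitors of growth factor receptor signalling, Spry1 fell. Spry1 (ENSMUSG00000037211, mm10 chromosome 3, 37639947 to 37644598, plus strand) had 21.3, 17.5, 22.3 and 28.3 CPM in sal003 replicates 1 to 4, against 34.9, 41.4, 34.1 and 34.4 CPM in DMSO replicates 1 to 4. Each sal003 library was below each DMSO library. The mean was 22.4 ± 4.48 CPM in sal003 and 36.2 ± 3.49 CPM in DMSO (SD, n = 4), a log2 fold change of -0.70 ± 0.17 (SE; edgeR adjusted p = 0.00655). Across the fits that left out 1 library it ranged from -0.83 to -0.60 and stayed past the threshold in all 8 (adjusted p at most 0.0284). The antisense gene Gm42922 overlaps 710 of the 2906 exonic bases of Spry1, and since the strand setting of the counting is not given in the sources used here, reads from the 2 strands cannot be told apart.

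Spry2 (ENSMUSG00000022114, chromosome 14, 105891947 to 105896819, minus strand) was the most abundant Sprouty and did not pass the test. It had 90.7, 101.9, 94.97 and 95.7 CPM in sal003, against 114, 67.0, 101.1 and 83.3 CPM in DMSO. The 4 sal003 libraries fell inside the DMSO range, whose lowest value was DMSO replicate 2. Its log2 fold change was 0.07 ± 0.14 (adjusted p = 0.817), with a 95% interval from -0.23 to 0.36, and it was -0.04 without DMSO replicate 2. Spry4 (ENSMUSG00000024427, chromosome 18, 38586247 to 38601415, minus strand) had 36.4, 69.6, 52.9 and 46.6 CPM in sal003, against 56.3, 72.8, 48.5 and 48.7 CPM in DMSO. It varied most among sal003 libraries of the 9 genes, with a coefficient of variation of 27.1%. Spry4 overlapped between the groups in part, with sal003 replicate 1 below every DMSO library and DMSO replicate 2 above every sal003 library. Its log2 fold change was -0.14 ± 0.19 (adjusted p = 0.695), with a 95% interval from -0.54 to 0.26, and was 0.02 without DMSO replicate 2 and 0.0002 without sal003 replicate 1.

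Both Spred genes, which encode membrane adaptors that join neurofibromin to RAS, rose. Spred1 (ENSMUSG00000027351, chromosome 2, 117121374 to 117182279, plus strand) had 115.5, 110.5, 98.8 and 125 CPM in sal003, against 75.9, 88.9, 81.1 and 96.4 CPM in DMSO. The groups did not overlap, though sal003 replicate 3 lay close to DMSO replicate 4. The log2 fold change was 0.40 ± 0.11 (adjusted p = 0.0146), and the call was lost without sal003 replicate 4, at 0.34 (adjusted p = 0.0607). Spred2 (ENSMUSG00000045671, chromosome 11, 19924375 to 20024026, plus strand) had 60.4, 64.4, 70.2 and 69.7 CPM in sal003, against 44.5, 36.8, 43.6 and 59.2 CPM in DMSO. DMSO replicate 4 reached nearly the lowest sal003 library, and the other DMSO libraries were well below it. Its log2 fold change was 0.52 ± 0.14 (adjusted p = 0.0138), from 0.44 to 0.68 across the fits without 1 library (adjusted p at most 0.0470).

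Of the ERK phosphatases, neither passed with all libraries, and their estimates had opposite signs. Dusp4 (ENSMUSG00000031530, chromosome 8, 34807297 to 34819894, plus strand) had 92.1, 82.0, 90.7 and 91.7 CPM in sal003, against 76.3, 101.2, 59.6 and 72.3 CPM in DMSO. DMSO replicate 2 exceeded every sal003 library and the other 3 DMSO libraries were below every one. Its log2 fold change was 0.20 ± 0.14 (adjusted p = 0.358), with a 95% interval from -0.09 to 0.50, and without DMSO replicate 2 it was 0.37 (adjusted p = 0.0109). Dusp6 (ENSMUSG00000019960, chromosome 10, 99263231 to 99267489, plus strand) had 28.1, 26.8, 21.7 and 30.8 CPM in sal003, against 32.5, 34.2, 29.3 and 33.5 CPM in DMSO. Only sal003 replicate 4 reached into the DMSO range. Its log2 fold change was -0.27 ± 0.15 (adjusted p = 0.258), with a 95% interval from -0.59 to 0.06, and it was below 0 and short of the threshold in each of the 18 alternatives run.

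Etv4, a PEA3-group ETS factor, had the largest change of the 9. Etv4 (ENSMUSG00000017724, chromosome 11, 101769742 to 101785371, minus strand) had 30.2, 29.9, 28.6 and 28.3 CPM in sal003, against 13.6, 11.2, 17.3 and 14.2 CPM in DMSO. Its sal003 values were the most even of the 9 genes, with a coefficient of variation of 3.15%, against 18.1% in DMSO. The estimated ratio was 2.08-fold, a log2 fold change of 1.06 ± 0.18 (adjusted p = 0.000341), from 0.97 to 1.19 without 1 library (adjusted p at most 0.00206). It was the only one of the 9 to pass a test against a 1.5-fold change rather than against no change. Etv5 (ENSMUSG00000013089, chromosome 16, 22381309 to 22439719, minus strand), the paralogue in the same group, had 37.7, 37.8, 45.1 and 50.5 CPM in sal003, against 31.8, 45.1, 29.0 and 26.4 CPM in DMSO. DMSO replicate 2 lay among the sal003 libraries and the other 3 DMSO libraries were below all of them. Its log2 fold change was 0.37 ± 0.18 (adjusted p = 0.160), with a 95% interval from -0.0022 to 0.75, and 0.57 without DMSO replicate 2 (adjusted p = 0.00478).

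**Figure D2:**
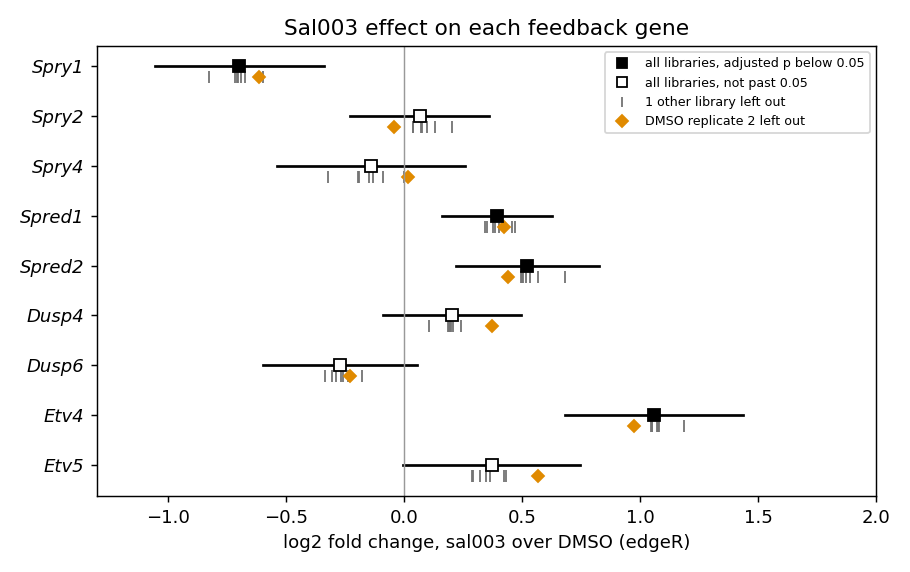
edgeR log2 fold change of sal003 over DMSO for each feedback gene (squares, filled where the adjusted p is below 0.05) with its 95% interval (line), and below it the estimate after leaving out DMSO replicate 2 (diamond) or another single library (ticks). Leaving out DMSO replicate 2 moves Dusp4 to 0.37 and Etv5 to 0.57, and moves Spry2 and Spry4 across 0, to -0.04 and 0.02.

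Without DMSO replicate 2, 5 of the 9 genes were higher in sal003, Dusp4 and Etv5 beside the 3 named above, and Spry1 was still the 1 that was lower, while 27.0% of all tested genes passed in either direction, against 22.7% with all libraries. The groups then did not overlap at Dusp4, with 82.0 to 92.1 CPM in sal003 and 59.6 to 76.3 CPM in the other 3 DMSO libraries. The same held for Etv5, with 37.7 to 50.5 CPM in sal003 and 26.4 to 31.8 CPM in those 3 libraries. DMSO replicate 2 also had the lowest summed level of proliferation markers among the DMSO libraries (1314 CPM). Its summed level of differentiation markers (50300 CPM) was nearly equal to that of DMSO replicate 1. Most of that sum was Ttn, at 35460 CPM in DMSO replicate 2 and 31930 CPM in DMSO replicate 1, so DMSO replicate 2 was not the lowest for it. Single markers of both lists went both ways in DMSO replicate 2. Among the DMSO libraries it was lowest for Myh3 (6164 CPM), Mki67 (681 CPM) and Top2a (342 CPM). It was highest for Myog (2873 CPM), Mymk (974 CPM), Ccnb1 (61.1 CPM) and Cdk1 (78.1 CPM).

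Per length of transcript, Spry2 and Dusp4 were the most abundant of the 9 in both conditions. RPKM, which is CPM divided by the union length of a gene's annotated exons in kilobases, averaged 45.9 ± 2.21 in sal003 and 43.8 ± 9.92 in DMSO for Spry2, and 32.5 ± 1.75 in sal003 and 28.2 ± 6.36 in DMSO for Dusp4 (SD, n = 4). Their ranges did not overlap in sal003 and overlapped in DMSO, and Dusp4 was separate from the gene below it, Spred1, in both. The remaining 7 genes lay between 7.70 and 16.6 RPKM in sal003 and between 4.53 and 12.6 RPKM in DMSO, and in that stretch each gene overlapped its neighbour in the order, except Etv5 and Etv4 in DMSO. Spry1 was at place 9 in sal003, at 7.70 ± 1.54 RPKM, and at place 4 in DMSO, at 12.5 ± 1.201 RPKM. Etv4 was at place 7 in sal003, at 9.43 ± 0.297 RPKM, and at place 9 in DMSO, at 4.53 ± 0.821 RPKM, below every other member there.

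**Figure D3:**
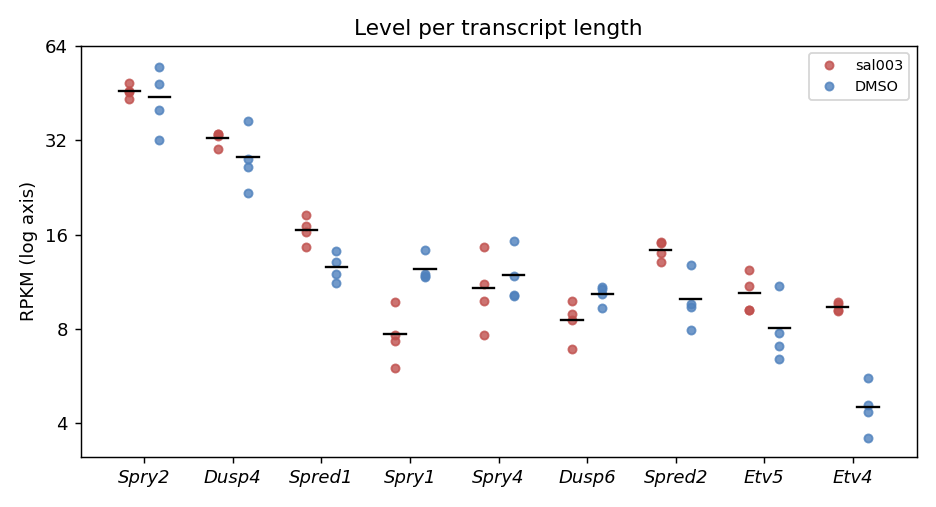
Level per transcript length (RPKM, log axis) of the 9 feedback genes in each library, sal003 (red) left of DMSO (blue), with lines at the means of 4 libraries, ordered by the DMSO mean. Spry2 and Dusp4 stand above the rest in both groups, and the lowest gene is Spry1 in sal003, at 7.70 RPKM, and Etv4 in DMSO, at 4.53 RPKM.

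Ratios of RPKM between members within a library do not depend on how the libraries are scaled against each other, and they are given as a description. The ratio of Spry1 to Spred1 was 0.370 to 0.528 in sal003 and 0.834 to 1.09 in DMSO, so that the ranges lay far apart. That of Spry1 to Spry2 was 0.124 to 0.213 in sal003 and 0.219 to 0.444 in DMSO, which are adjacent ranges without overlap. For the phosphatases, Dusp6 to Dusp4 was 0.209 to 0.294 in sal003 and 0.296 to 0.429 in DMSO, the lowest DMSO value being that of replicate 2. Etv4 to Etv5 was 0.741 to 1.06 in sal003 and 0.327 to 0.789 in DMSO, Spry4 to Spry2 was 0.176 to 0.300 in sal003 and 0.211 to 0.477 in DMSO, and Spred2 to Spred1 was 0.768 to 1.04 in sal003 and 0.608 to 0.903 in DMSO, all with overlap.

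Genes whose profile over the 8 libraries was most like that of a changed member were found by the root mean square difference of log2 CPM, each gene centred on its own mean, among 7237 named genes at or above the median level. Nearest to Etv4 were Cep128, which encodes a centriole protein (difference 0.0825), and Aebp1, which encodes a matrix protein (0.104). Nearest to Spry1 were Rnf217, a RING-type ubiquitin ligase gene (0.0887), and the membrane metalloproteinase gene Mmp15 (0.100). Spred1 was closest to Exoc5, a subunit of the exocyst (0.0615), and to Elk4, an ETS factor that partners serum response factor (0.0665). Spred2 was closest to the ribosomal protein gene Rpl7a (0.0540), which has near-identical copies and so an uncertain count, and to the oxygen-regulated factor Hif1a (0.0654).

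The other brakes and phosphatases of the pathway moved both ways as well, against 10.6% higher and 12.2% lower among all tested genes. Of 16 further inhibitors of receptor and RAS signalling tested, 5 rose and 1 fell, with a median log2 fold change of 0.11, and 3 and 1 of these held in every fit without 1 library. Errfi1, an inhibitor of EGF receptor family kinases, averaged 261 CPM in sal003 and 152 CPM in DMSO (log2 fold change 0.78 ± 0.10, SE). The RAS GTPase activators Rasa1 (0.78 ± 0.11) and Rasa3 (0.42 ± 0.11) rose. Sef (Il17rd) had a log2 fold change of -0.11 ± 0.34 and Spred3 of -0.75 ± 0.41, and neither passed (adjusted p = 0.878 and 0.231); both are named for their kinship to the 9 genes.

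Of 8 further MAP kinase phosphatases, 3 rose and 3 fell (median 0.09), and 1 and 3 of these held in every fit without 1 library. Among all tested genes 10.6% were higher and 12.2% lower. Without DMSO replicate 2, 4 of the phosphatases were higher and 3 lower. Dusp8, which acts mainly on the stress kinases JNK and p38, fell to 6.23 ± 0.788 CPM in sal003, against 36.3 ± 2.80 CPM in DMSO, a log2 fold change of -2.54 ± 0.18 (adjusted p = 5.15e-08). Dusp10, which also acts on JNK and p38, fell (-0.67 ± 0.14), as did Dusp1, a nuclear phosphatase of immediate early type, at 10.5 ± 1.87 CPM in sal003 and 30.4 ± 9.32 CPM in DMSO (-1.53 ± 0.23). Dusp2, a nuclear phosphatase first known from lymphocytes, rose, at 39.1 ± 5.49 CPM in sal003 and 22.7 ± 0.947 CPM in DMSO (0.79 ± 0.15).

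Upstream of the brakes, receptor and cascade genes moved both ways, against 10.6% higher and 12.2% lower among all tested genes. Of 13 receptors and coreceptors, 1 rose and 4 fell (median -0.17), and 1 and 3 of these held in every fit without 1 library. Without DMSO replicate 2, 1 was higher and 5 were lower. Met, the HGF receptor, rose (1.18 ± 0.11), while the decoy FGF receptor Fgfrl1 (-1.07 ± 0.13), the heparan sulphate coreceptor Gpc1 (-0.87 ± 0.12) and Fgfr3 (-1.35 ± 0.26) fell. Of 27 genes from the adaptors to ERK and its target kinases, 1 rose and 8 fell (median -0.07), and 1 and 6 of these held in every fit without 1 library. Without DMSO replicate 2, 2 were higher and 9 lower. The scaffold Ksr1 (-0.83 ± 0.13), the MEK gene Map2k1 (-0.65 ± 0.10) and Araf (-0.55 ± 0.12) fell, and Mapk3, which encodes an ERK kinase, was estimated at 0.38 ± 0.25 and did not pass (adjusted p = 0.336). Of 7 FGF ligands 4 could be tested, 0 rose and 1, Fgf6, the muscle FGF, fell (median -1.93), with 0, 0, 44 and 34 counts in sal003 and 179, 449, 181 and 109 counts in DMSO; it missed the threshold when any of DMSO replicates 1, 2, 3 and 4 or sal003 replicates 3 and 4 was left out (6 of 8 fits, adjusted p up to 0.0840).

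Downstream, of 12 ETS factors and partners of Capicua, 2 rose and 2 fell (median -0.04), and all 4 held in every fit without 1 library. Without DMSO replicate 2, 3 were higher and 2 lower, with a median of 0.10. Cic, which encodes the Capicua repressor, had 148 ± 7.08 CPM in sal003 and 207 ± 38.9 CPM in DMSO, a log2 fold change of -0.49 ± 0.12 (adjusted p = 0.00585), and Atxn1, whose product binds Capicua, had -0.74 ± 0.12 (adjusted p = 0.000283). The ETS factors Gabpa (0.59 ± 0.15) and Elk4 (0.37 ± 0.10) rose, and Etv1, the third PEA3-group factor, was estimated at 0.64 ± 0.30 and did not pass (adjusted p = 0.158). Of 23 further output genes of ERK tested, 5 rose and 6 fell (median -0.14), and 5 and 4 of these held in every fit without 1 library. Without DMSO replicate 2, 6 were higher and 8 lower, with a median of -0.02; among all tested genes 10.6% were higher and 12.2% lower. The cyclin gene Ccnd1 (0.77 ± 0.09) and the urokinase receptor gene Plaur (1.32 ± 0.21) rose, whereas the AP-1 subunit gene Fosl2 (-0.93 ± 0.15) and the zinc finger factor gene Egr1 (-1.04 ± 0.18) fell.

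**Figure D4:**
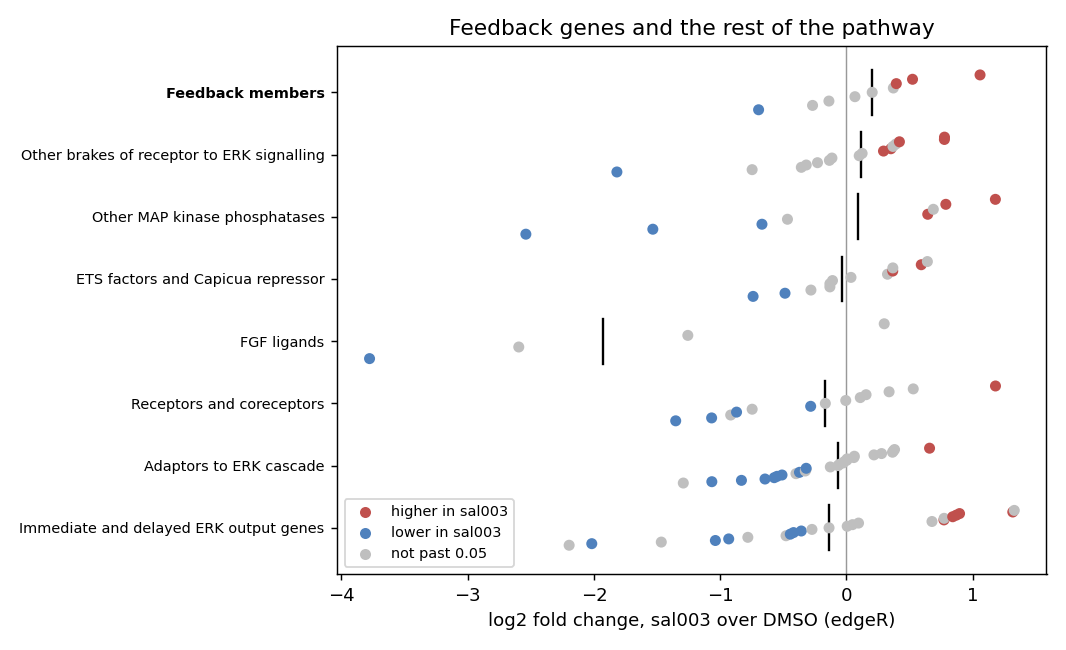
edgeR log2 fold change of sal003 over DMSO for each tested gene of the feedback set and of 7 lists of the same pathway, coloured by call (red higher in sal003, blue lower, grey not past an adjusted p of 0.05), with the list median as a black line. Each list but the FGF ligands, where 0 rose and 1 fell, holds genes on both sides of 0 that passed.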

How the data were processed

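Per the labels' protocols, total RNA was depleted of ribosomal and mitochondrial RNA and made into stranded SMARTer libraries for an Illumina MiSeq. The authors deposited whole-number counts per gene over exons. The tools named in the submitters' processing notes are STAR 2.3.0e, Trimmomatic 0.32 and featureCounts 1.4.4, with the mm10 build. How the counter treated strand, overlaps and reads with several alignments is not given in the sources used here. Of counts from 1 to 20, 75.6% to 83.4% per library were even, so halved counts were tried as an alternative.

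The 8 libraries were grouped by title, 4 sal003 and 4 DMSO, and 3 list symbols (Mymk, Mymx, Adgre1) were matched through their Ensembl identifiers. In R 4.3.3, edgeR 4.0.16 was used (filterByExpr, minimum count 10 and minimum total 15; TMM; robust quasi-likelihood fit on condition; two-sided tests, Benjamini-Hochberg over 15816 genes, threshold 0.05). SE is the log2 fold change over the square root of F, and 95% intervals use the fit's degrees of freedom. CPM are TMM-scaled, and RPKM divide them by union exon length in GENCODE M21, where 96.4% of identifiers were found. Log2 CPM for profile likeness used an offset of 0.5. Replicate pairs differed by a chi-square of at least 25.3 per degree of freedom, so none was a duplicate. Counting error is the only error that depth covers, since no molecular identifiers are described.

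The 9 genes, the lists and the tests were chosen with earlier results of these data known. Of each other list, up to 4 members past the threshold were named in order of p, and for each changed member the 2 nearest profiles; Il17rd, Spred3, Mapk3 and Etv1 were named outside that rule after their values were seen, and a few genes under it are not reported here. Alternatives were other scalings, filters and tools (DESeq2 1.42.0, limma 3.58.1), a replicate block, leaving out each library, and a test against a 1.5-fold change. The fit and the motif search (Python 3.11.15) were tested on simulated data.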

Additional observations from a re-analysis of the deposited data

Results flagged for a closer look

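Among the 4 sal003 or the 4 DMSO values of each of the 9 genes, 2 libraries stood farther from the others than Dixon's 95% limit allows, where chance flags about 1 in 20 such groups. Spry1 in DMSO replicate 2 was the highest DMSO value, at 41.4 CPM, and its gap to the next library took 0.886 of the group's range. Dusp4 in sal003 replicate 2 was the lowest sal003 value, at 82.0 CPM, with a gap of 0.864 of the range, although the 4 sal003 values of Dusp4 lie within 82.0 to 92.1 CPM.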

How the results depend on the processing

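Over the 18 alternatives, Etv4 and Dusp6 kept their direction and their side of the threshold in every one. Leaving out 1 library gave 2 to 5 members higher and 1 lower, and 1270 to 2219 genes higher and 1612 to 2252 lower. Without DMSO replicate 2, Dusp4 (0.37) and Etv5 (0.57) passed, Spry2 (-0.0428) and Spry4 (0.0197) changed sign (their ranges without 1 library were -0.0428 to 0.2034 and -0.3202 to 0.0197), 0 FGF ligands were lower, 2 cascade genes were higher, and the medians of the ETS and output lists were 0.1026 and -0.022. Spry4 was also above 0 without sal003 replicate 1 (0.0002), and Spred1 missed the threshold without sal003 replicate 4. With limma-voom and quality weights 5 members were higher, Dusp4 at 0.36 and Etv5 at 0.51 included, and Spry2 was -0.0094. In that fit 29% of all tested genes passed in either direction, against 22.7% in the main fit. Against a 1.5-fold change 1 member was higher and 0 lower, and 266 genes were higher and 737 lower. The cause of these shifts was not tested, except that the last test asks for a larger change. Replicate numbers shared by the groups did not pair the libraries (correlation of deviations from -0.00531 to 0.0354 for same-numbered libraries), and with a replicate block 1660 genes were higher and 1770 lower, with 3 members higher and 1 lower. Other scalings, filters, halved counts and DESeq2 changed none of the 9 calls. At these depths, the 95% intervals of the 5 genes that did not pass still allow changes of up to 0.75 (Etv5) on the log2 scale.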
